A study of Mus musculus with 8 samples.

Results

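The NK and cytotoxic effector genes are 10 genes of natural killer (NK) cells and other killer lymphocytes, taken by name from a table of read counts over 27179 genes in 8 mouse mammary tumours. Ncr1, Klrb1c, Klrk1 and Klrd1 encode receptors on the surface of NK cells, Nkg7 encodes a membrane protein of cytotoxic granules, and Prf1, Gzma, Gzmb, Gzmk and Ctsw encode perforin, 3 granzymes and the protease cathepsin W. All 10 were in the table. The question addressed is whether transcripts of killer cells differed between whole tumours with and without a reduction of microRNA-21 (miR-21) activity in the carcinoma cells.

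All tumours grew in female BALB/c mice from 4T1.13 cells, a metastatic mammary carcinoma line, after injection of 100000 cells into the mammary fat pad, and the labels give day 14 for their recovery, where the study's methods give an earlier day. The 4 miR-21-KD tumours came from cells carrying a lentiviral miArrest vector whose H1 promoter drives an RNA that sequesters mature miR-21. The 4 vector control (VC) tumours came from cells carrying the same vector with a scrambled sequence, so that both groups hold the vector with its mCherry and hygromycin resistance genes. Each group came from a single line that was a pool of clones, so an effect of the knockdown and a difference between the pools cannot be told apart. Only the injected cells carried the vector, and the cells of the host kept their own miR-21. The sex is taken from the study's methods, which place the randomisation of the mice in young adulthood. Total RNA of whole tumours was sequenced, and a change in the number of killer cells and a change in RNA per cell cannot be told apart in such samples.

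NK cells recognise targets through a balance of activating receptors such as NKp46 (Ncr1) and NKG2D (Klrk1) and inhibitory ones that read MHC class I, among them the CD94 (Klrd1) heterodimers with NKG2 proteins. On activation they and cytotoxic T cells release granules in which perforin opens the membrane of the target and granzymes enter to trigger its death. Mouse NK cells hold much granzyme and perforin mRNA before they are activated, and several of these genes, Klrk1, Klrd1, Nkg7, Prf1, Gzma, Gzmb, Gzmk and Ctsw, are also expressed by cytotoxic T cells.

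The sequence that the vector was built to sequester is shown because it sets what the groups differ in. Mature miR-21 (mmu-miR-21a-5p, RefSeq, GRCm38.p6, chr11:86584120-86584141, minus strand) reads as follows, 5′ to 3′, with the seed, bases 2 to 8, in capitals.
mmu-miR-21a-5p: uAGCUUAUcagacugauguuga
A match to that seed, the letters ATAAGCT, was found in the longest annotated 3′ UTR of 1500 of 21110 mouse genes (7.11%) and of 1 of the 10 members. That member was Klrk1, whose 3′ UTR of 2463 bases held 2 matches, at its bases 1401 and 1939. The seed matches lie on the minus strand of chromosome 6 in exonic 3′ UTR sequence, at chr6:129611379-129611385 and chr6:129610841-129610847, and are shown in capitals within 8 bases to each side.
Klrk1 first match: aatcccaaATAAGCTgagaccag
Klrk1 second match: caaaggctATAAGCTtatacaaa
The other 9 members had no such letters in their 3′ UTRs, which ran from 67 bases in Gzma to 1800 in Klrb1c.

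Library totals ran from 12134849 to 13592695 counted reads among the VC tumours and from 12550898 to 12783800 among the miR-21-KD tumours. A count of 0 allows up to 3 counts, which is 0.221 to 0.245 CPM (counts scaled to library size) depending on the tumour and covers counting error only. VC replicate 4 stood apart from the other VC tumours in lymphocyte markers. Its 9 B cell markers summed to 252.7 CPM against 22.9 to 27.7 in the other VC tumours and 49.99 to 171 in the miR-21-KD tumours. Its 14 T cell markers summed to 245 CPM against 62.7 to 141 in the other VC tumours, and its 9 carcinoma and epithelium markers to 1295 CPM against 2073 to 2234. The fits of the members were therefore repeated without VC replicate 4. Among the miR-21-KD tumours, replicate 4 had the most B cell marker CPM, 171, and held part of the same signal. Ighd had 151 counts in it against 8 to 15 in the other miR-21-KD tumours, and 179 in VC replicate 4. Glycam1, a lymph node gene, had 304 counts against 5 to 11, and 119 in VC replicate 4. Each other tumour, miR-21-KD replicate 4 among them, was also left out in turn.

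**Figure D1:**
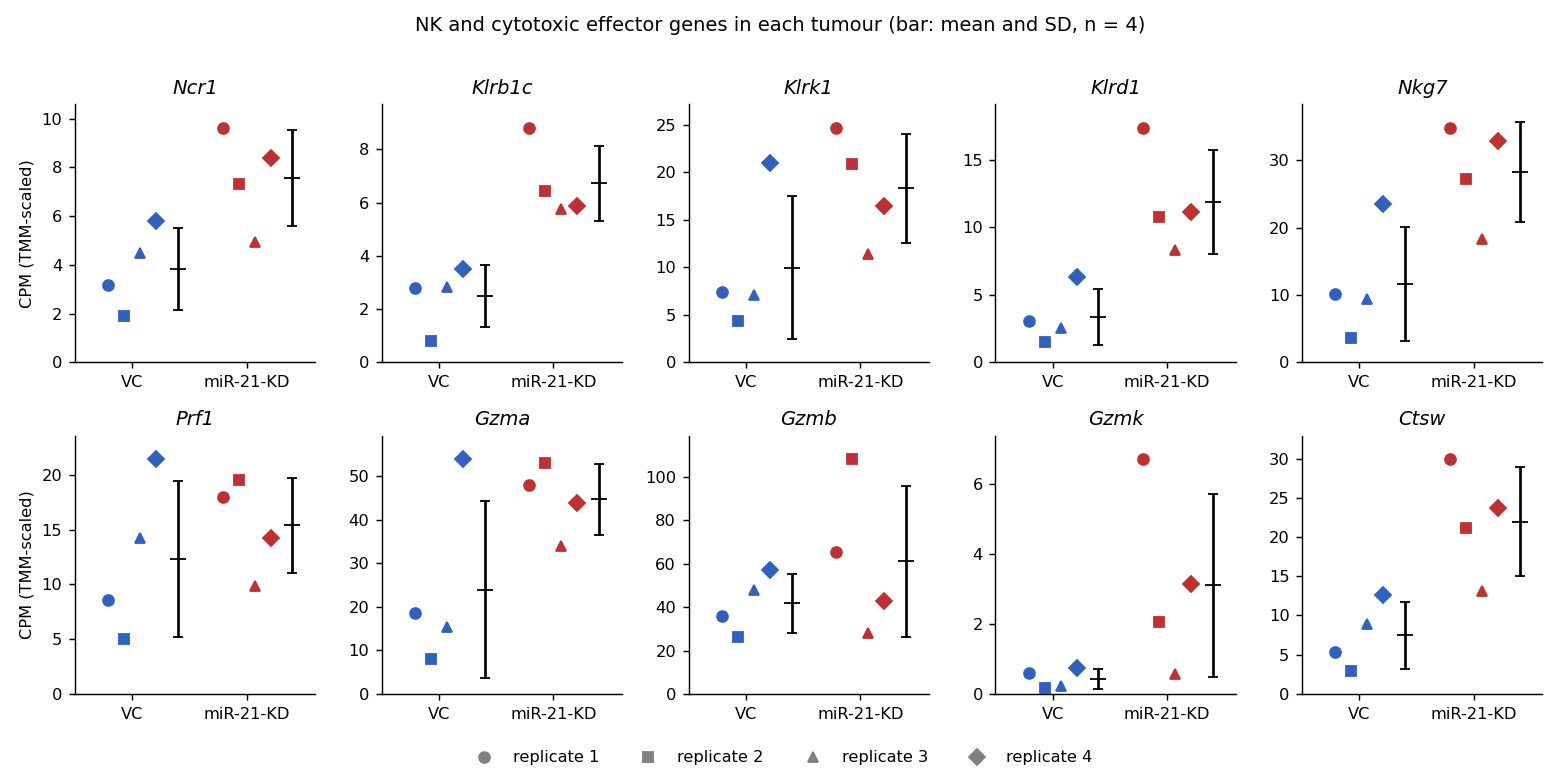
CPM (vertical axes, linear, each starting at 0 and scaled by library size and TMM factor) of the 10 member genes in the 4 VC tumours (blue) and the 4 miR-21-KD tumours (red), with replicate numbers as symbols and mean ± SD as bars. Klrb1c, Klrd1 and Ctsw show no overlap between the groups, and VC replicate 4 (diamond) is the highest VC tumour for every member.

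Klrd1, Klrb1c and Ctsw were higher in miR-21-KD tumours, and the remaining 6 members that could be tested did not pass. Of the 9 tested members, 3 had an adjusted p under 0.05 in edgeR's quasi-likelihood test over 14382 genes, all higher in miR-21-KD, against a background of 19.6% of tested genes called higher and 19.5% called lower. The log2 fold changes of all 9 lay above 0, with a median of 0.98 where the median over all tested genes was -0.01. Every miR-21-KD tumour exceeded every VC tumour for 3 of the 10 members, the same 3 genes, and for 16.3% of tested genes. Without VC replicate 4, 8 of 10 members were called higher, against a background of 20.4%, with Prf1 and Gzmb the 2 that did not pass. The 8 include Gzmk, which met the count filter in that fit only through its high miR-21-KD tumours. DESeq2 called 5 members higher against a background of 23.9%, and limma-voom with sample quality weights 7 against 28.1%. Without VC replicate 3 or miR-21-KD replicate 1, the count fell to 1, Klrd1, against backgrounds of 9.90% and 12.9%, and without miR-21-KD replicate 4 to 2, Klrd1 and Klrb1c, against 12.1%.

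Among the receptors, Klrd1 (chr6:129588092-129598775) moved most. It encodes CD94, which pairs with NKG2A to form an inhibitory receptor for the nonclassical MHC molecule Qa-1 and with NKG2C or NKG2E to form activating ones. Its values were 3.10, 1.52, 2.52 and 6.29 CPM in VC replicates 1 to 4 and 17.4, 10.8, 8.36 and 11.1 CPM in miR-21-KD replicates 1 to 4. The lowest miR-21-KD tumour stood above VC replicate 4, the highest VC tumour. The mean rose from 3.36 ± 2.06 to 11.9 ± 3.85 CPM (SD, n = 4 each) with a log2 fold change of 1.83 (SE 0.42, adjusted p = 0.0135, edgeR). Klrd1 was called higher in all 16 fits tried, with adjusted p from 0.000128 to 0.0445. Without VC replicate 4 it had a log2 fold change of 2.31 (SE 0.34, adjusted p = 0.00753).

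Klrb1c (chr6:128778485-128788641) encodes NKR-P1C, an activating lectin-like receptor that carries the NK1.1 antigen in C57BL/6 mice. It had 2.80, 0.798, 2.84 and 3.51 CPM in the VC tumours and 8.81, 6.45, 5.76 and 5.87 CPM in the miR-21-KD tumours. The groups did not overlap, and the log2 fold change was 1.43 (SE 0.39, adjusted p = 0.0220, edgeR). The adjusted p rose to 0.0533 without VC replicate 3 and to 0.0563 without miR-21-KD replicate 1, and without VC replicate 4 the log2 fold change was 1.63 (SE 0.42, adjusted p = 0.0208). Klrb1a, Klrb1b and Klrb1f, its close paralogs, named after their values were seen, were also higher (log2 fold changes of 1.44, 1.04 and 1.48). Klrb1a missed the threshold without VC replicate 2, VC replicate 3 or miR-21-KD replicate 1 (adjusted p of up to 0.0579), and Klrb1b without those or miR-21-KD replicate 2 or 4 (adjusted p from 0.0647 to 0.114). Without a filter on low counts Klrb1b also missed it (adjusted p = 0.0510). BALB/c and C57BL/6 mice differ in this family, reads were counted on a C57BL/6 reference, and reads could have been exchanged among the paralogs, which leaves the individual values uncertain.

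Ncr1 (chr7:4337715-4345184) encodes NKp46, the activating receptor most used to define NK cells across mouse strains. It measured 3.17, 1.91, 4.49 and 5.80 CPM in VC and 9.62, 7.31, 4.95 and 8.38 CPM in miR-21-KD tumours. Only miR-21-KD replicate 3 fell within the range of the VC tumours, below VC replicate 4. The log2 fold change of 0.98 (SE 0.35) missed the threshold (adjusted p = 0.0527, edgeR). It passed without VC replicate 4 (1.23, SE 0.34, adjusted p = 0.0264) and in 5 of 16 fits in all.

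Klrk1 (chr6:129610323-129623903) encodes NKG2D, which binds stress-induced ligands on target cells. Its values were 7.37, 4.39, 7.09 and 21.0 CPM in VC tumours and 24.7, 20.8, 11.4 and 16.4 CPM in miR-21-KD tumours. VC replicate 4 lay above 3 of the 4 miR-21-KD tumours, whereas the other VC tumours lay below all of them. The log2 fold change was 0.88 (SE 0.47, adjusted p = 0.158, edgeR) with all tumours and 1.53 (SE 0.31, adjusted p = 0.0118) without VC replicate 4.

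The proportion of these receptor transcripts to each other can be read within each tumour. Klrd1 counts were 0.420, 0.345, 0.356 and 0.2996 times those of Klrk1 in the VC tumours and 0.705, 0.517, 0.736 and 0.676 times in the miR-21-KD tumours. This ratio does not depend on the scaling of the libraries, and its groups did not overlap. VC replicate 4, the VC tumour with most of either transcript, had the lowest ratio. No test of the ratio was made, because it was formed after the values of its members were known.

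Of the granule genes, Ctsw was the one called. Ctsw (chr19:5465043-5468628) encodes cathepsin W, a papain-like protease found mainly in NK and CD8 T cells. Its values were 5.31, 2.95, 8.91 and 12.7 CPM in VC and 29.9, 21.1, 13.1 and 23.7 CPM in miR-21-KD tumours. The gap between VC replicate 4 and miR-21-KD replicate 3 was narrow, but the groups did not overlap. The log2 fold change was 1.56 (SE 0.43, adjusted p = 0.0225, edgeR), and adjusted p values of 0.0518, 0.0570 and 0.0565 were found without VC replicate 3, miR-21-KD replicate 1 and miR-21-KD replicate 4. Without VC replicate 4 it was 1.93 (SE 0.41, adjusted p = 0.0133). The 3′ end of Ctsw overlaps that of Fibp on the other strand by a few bases. Fibp rose from 39.6 ± 2.92 to 54.8 ± 5.95 CPM (SD, n = 4 each) with a log2 fold change of 0.47 (adjusted p = 0.0107, edgeR), and whether counting used strand was not given.

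Nkg7 (chr7:43437138-43438246), whose product sits in the granule membrane and takes part in granule release, had 10.2, 3.59, 9.38 and 23.5 CPM in VC and 34.8, 27.2, 18.3 and 32.9 CPM in miR-21-KD tumours. As for Ncr1, miR-21-KD replicate 3 lay below VC replicate 4 and no other tumours overlapped. Its log2 fold change was 1.28 (SE 0.48, adjusted p = 0.0620, edgeR). With the replicate number as a block, which pairs each VC tumour with the miR-21-KD tumour of the same number, it was 1.47 (SE 0.39, adjusted p = 0.0274), and 4 members were then called higher against a background of 23.0%. Without VC replicate 4 it was 1.86 (SE 0.38, adjusted p = 0.0120).

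Prf1 (chr10:61297751-61304684), which encodes perforin, was not called. Its values of 8.55, 5.03, 14.3 and 21.4 CPM in VC and 17.9, 19.6, 9.82 and 14.2 CPM in miR-21-KD tumours overlapped over most of their range. The highest value of all was that of VC replicate 4. The log2 fold change was 0.32 (SE 0.42, adjusted p = 0.556, edgeR), and it did not pass in any of the 16 fits, where adjusted p ran from 0.149, without VC replicate 4 (0.72, SE 0.37), to 0.914.

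Gzma (chr13:113093824-113100981), which encodes a granzyme of tryptase type, had 18.7, 7.98, 15.4 and 53.9 CPM in VC and 48.0, 53.1, 33.9 and 43.8 CPM in miR-21-KD tumours. VC replicate 4 held the highest value, and the other VC tumours lay below every miR-21-KD tumour. Its log2 fold change was 0.90 (SE 0.50, adjusted p = 0.175, edgeR) and became 1.67 (SE 0.29, adjusted p = 0.00922) without VC replicate 4. RefSeq places it within the span of Cdc20b on the other strand, and Cdc20b had a mean of at most 0.140 CPM in either group.

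Gzmb (chr14:56258836-56262334), which encodes the granzyme that cleaves after aspartate and activates caspases, had 36.1, 26.2, 47.8 and 57.2 CPM in VC and 65.6, 108.2, 28.1 and 42.9 CPM in miR-21-KD tumours. Both the spread and the overlap were wide, with miR-21-KD replicate 3 among the lowest of the 8 tumours and miR-21-KD replicate 2 the highest. The log2 fold change was 0.55 (SE 0.40, adjusted p = 0.299, edgeR), and Gzmb passed in none of the 16 fits (adjusted p from 0.124 to 0.959), with 0.73 (SE 0.44, adjusted p = 0.209) without VC replicate 4.

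Gzmk (chr13:113171630-113180965) lies 70.6 kb from Gzma and encodes another tryptase-type granzyme, expressed by memory CD8 T cells and other lymphocytes. It had 8, 2, 3 and 9 counts in VC and 83, 26, 7 and 40 counts in miR-21-KD tumours, too few to enter the fit. The values of miR-21-KD replicate 3 lay within the VC range and the other 3 miR-21-KD tumours above it. Without a filter on low counts its log2 fold change was 2.78 (SE 0.73, adjusted p = 0.0238, edgeR), and 4 members were called higher against a background of 12.7%. With VC replicate 2 or 3 left out it entered the filtered fit and missed the threshold (adjusted p = 0.0574 and 0.0622), while without VC replicate 4 it passed (adjusted p = 0.0268). It met the filter in such fits only through miR-21-KD replicates 1, 2 and 4. Entry through the group where it is high favours a higher call, so these fits are no independent support.

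**Figure D2:**
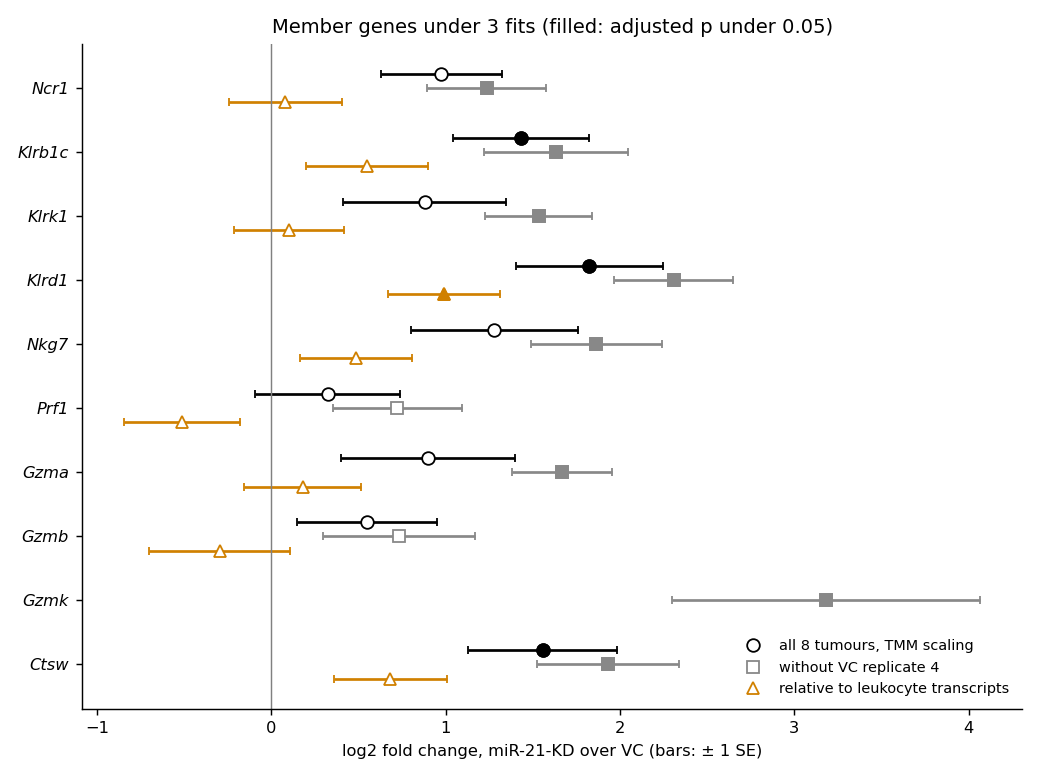
Log2 fold change of miR-21-KD over VC (horizontal axis) for each member, with bars of 1 SE, in the fit over all 8 tumours (circles), without VC replicate 4 (squares) and relative to leukocyte transcripts (triangles), filled where the adjusted p was under 0.05. Klrd1 is filled in all 3 fits, Prf1 and Gzmb in none, and Gzmk was tested only without VC replicate 4.

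To compare levels between genes, CPM was divided by exon length. Gzmb and Gzma were the most abundant members in the VC tumours, with 29.1 ± 9.41 and 23.8 ± 20.3 CPM per kb (SD, n = 4). They were followed by Nkg7 (13.2 ± 9.58), Ctsw (6.01 ± 3.42), Prf1 (4.77 ± 2.77), Klrd1 (3.48 ± 2.14), Klrk1 (2.90 ± 2.18), Ncr1 (2.50 ± 1.09), Klrb1c (0.945 ± 0.446) and Gzmk (0.315 ± 0.203). From Gzmb down to Ncr1, neighbours in that order differed by less than the larger of their SDs. In the miR-21-KD tumours Gzma (44.4 ± 8.07) and Gzmb (42.6 ± 24.3) again led, and Klrd1 (12.3 ± 3.98) stood above Prf1 (5.96 ± 1.68). The relation between the granzymes varied within groups as well, since Gzmb counts were 1.06 to 3.29 times those of Gzma in VC and 0.828 to 2.04 times in miR-21-KD tumours.

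Whole tumours also differed in the amount of leukocyte RNA. The 15 pan-leukocyte genes summed to 2202 to 3928 CPM in VC and 4296 to 6212 CPM in miR-21-KD tumours without overlap, and Ptprc, which encodes CD45, rose from 189 ± 68.2 to 375 ± 75.6 CPM (SD, n = 4 each) with a log2 fold change of 0.99 (adjusted p = 0.0180, edgeR), or an adjusted p of 0.0536 without VC replicate 3. Macrophage and monocyte markers summed to 3550 to 5530 CPM in VC and 6518 to 11056 CPM in miR-21-KD tumours. T cell markers ranged from 62.7 to 245 CPM and from 203 to 450 CPM, so that VC replicate 4 exceeded miR-21-KD replicate 3. The summed CPM of the 10 members ranged from 54.6 to 206 in VC and from 134 to 277 in miR-21-KD tumours and overlapped, with VC replicate 4 above miR-21-KD replicates 3 and 4. The part of these other cells in the results on the members was not tested beyond the scaling that follows.

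**Figure D3:**
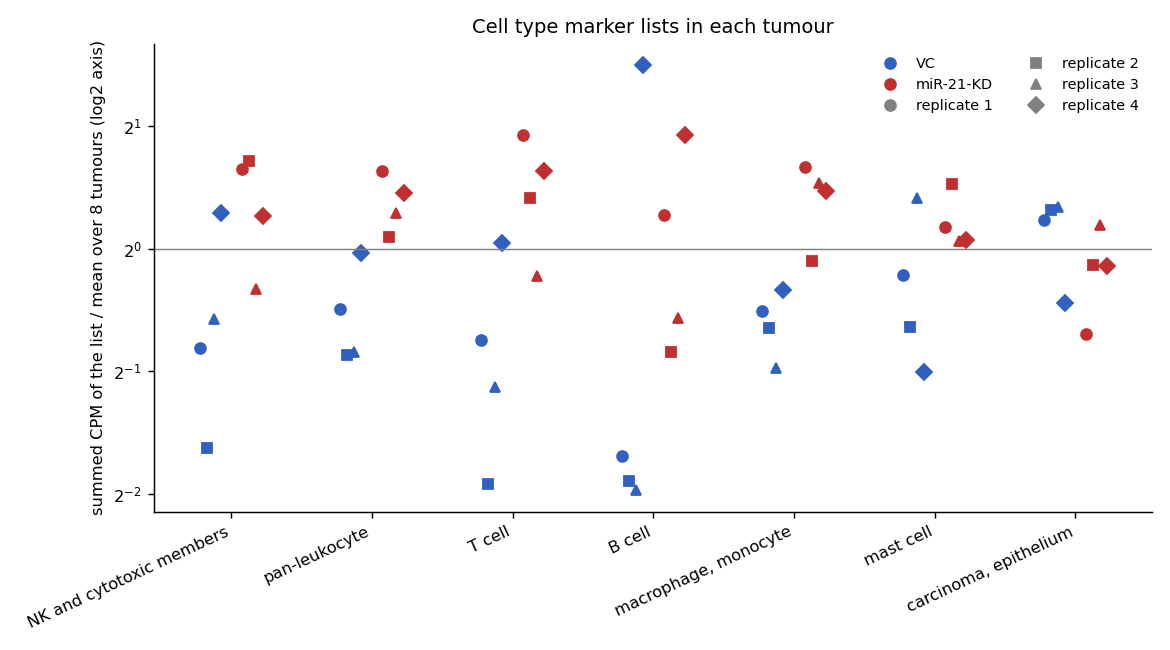
Summed CPM of the member genes and of 6 marker lists in each tumour, divided by the mean over the 8 tumours (vertical axis, log2 scale), with VC in blue, miR-21-KD in red and replicate numbers as symbols. VC replicate 4 (blue diamond) is the highest of the VC tumours for members, leukocyte, T cell and B cell lists and the lowest for the carcinoma list, where it had 1295 CPM.

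Scaled to leukocyte transcripts instead of the whole library, Klrd1 was the only member called higher. In this fit the summed counts of the pan-leukocyte genes served as library size, the median log2 fold change of all 14382 genes was -0.96, and 3.64% of genes were called higher and 68.4% lower. Klrd1 had 1.09, 0.688, 1.13 and 1.603 counts per 1000 leukocyte counts in the VC tumours and 2.80, 2.51, 1.70 and 2.02 in the miR-21-KD tumours. The groups again did not overlap, and the log2 fold change was 0.99 (SE 0.32, adjusted p = 0.00857, edgeR). It was called in all 11 such fits, with the lowest fold change at 0.82 when VC replicate 2 was left out. Without VC replicate 4 it was 1.22 (SE 0.298, adjusted p = 0.00220).

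No other tested member passed in this scaling with all 8 tumours and no block. Ctsw had a relative log2 fold change of 0.68 (SE 0.32, adjusted p = 0.0615) and Klrb1c one of 0.55 (SE 0.35, adjusted p = 0.159). Nkg7 had 0.49 (SE 0.32, adjusted p = 0.174). With the replicate block, Ctsw (0.75, adjusted p = 0.00655) and Nkg7 (0.57, adjusted p = 0.0291) passed as well, against a background of 5.51%. Ctsw was also called without VC replicate 3 or miR-21-KD replicate 3, and Nkg7 without VC replicate 4, where 3.27% of genes were called higher. Gzmk, not tested with all tumours, was called higher in the 5 leukocyte-relative fits that included it, where 2.40% to 5.34% of all genes were. It passed the count filter in those fits only through its high miR-21-KD tumours, so the calls are no independent support. Gzma, Klrk1 and Ncr1 lay near 0 (0.18, 0.10 and 0.08, each with an SE of 0.32 to 0.33), and their sign changed when single tumours were left out. Gzmb had -0.30 (SE 0.41, adjusted p = 0.522) and Prf1 -0.51 (SE 0.33, adjusted p = 0.170), and without miR-21-KD replicate 2 both were called lower (adjusted p = 0.00523 for Gzmb and 0.0263 for Prf1), where 68.0% of all genes were.

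Promoters of the members are shown with the letters of 3 families of factors known to act on NK genes. Of factors in these families, Eomes and Runx3 were called higher. Tbx21, which encodes T-bet, had a log2 fold change of 1.43 (adjusted p = 0.0527, edgeR, or 0.0233 with the replicate block and 0.0135 without VC replicate 4). Ets1 had -0.03 (adjusted p = 0.904). Both were named after their values were seen, and action of any factor on these promoters was not tested. RefSeq start sites with 250 bases before and 50 after them were listed for 8 members, and for Klrd1 and Ctsw none was listed. Where a gene had several, the first was used. Each was searched on both strands for the letters TGTGGT (reverse ACCACA, RUNX factors), GGTGTG (reverse CACACC, T-box factors such as Eomes and T-bet) and AGGAAG (reverse CTTCCT, ETS factors). The RUNX and T-box letters can overlap at their ends, but in the 1 member promoter that held both, that of Nkg7, they lay apart. The RUNX letters were in 7 of the 8 promoters, all but that of Gzmk, against 16.9% of 27025 mouse promoters of the same length. T-box letters were in 2 of 8 against 19.0%, and ETS letters in 3 of 8 against 35.1%. Such matches are a description of letters and not of binding. The promoter of the called receptor Klrb1c, those of Ncr1 and Gzmb with 2 matches each, and that of Prf1 are printed 5′ to 3′ on the strand of the gene (GRCm38.p6), with the RUNX letters in capitals.
Klrb1c, chr6:128788592-128788891, minus strand: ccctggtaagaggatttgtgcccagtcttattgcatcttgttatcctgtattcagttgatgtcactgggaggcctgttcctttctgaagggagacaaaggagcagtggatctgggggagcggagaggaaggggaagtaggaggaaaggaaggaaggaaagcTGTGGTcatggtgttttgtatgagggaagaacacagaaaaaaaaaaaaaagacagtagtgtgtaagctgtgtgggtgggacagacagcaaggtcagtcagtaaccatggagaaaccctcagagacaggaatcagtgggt
Ncr1, chr7:4337465-4337764, plus strand: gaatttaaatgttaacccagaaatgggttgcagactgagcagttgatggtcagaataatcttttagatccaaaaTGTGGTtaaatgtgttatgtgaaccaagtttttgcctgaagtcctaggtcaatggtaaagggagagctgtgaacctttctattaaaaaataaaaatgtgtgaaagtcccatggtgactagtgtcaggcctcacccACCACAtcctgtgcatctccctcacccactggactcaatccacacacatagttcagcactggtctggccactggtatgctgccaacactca
Gzmb, chr14:56262285-56262584, minus strand: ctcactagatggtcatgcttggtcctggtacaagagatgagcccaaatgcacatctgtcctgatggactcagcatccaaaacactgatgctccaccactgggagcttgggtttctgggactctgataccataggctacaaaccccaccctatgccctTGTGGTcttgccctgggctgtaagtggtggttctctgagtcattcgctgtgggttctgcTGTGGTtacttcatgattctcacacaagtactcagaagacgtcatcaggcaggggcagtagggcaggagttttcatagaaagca
Prf1, chr10:61297586-61297885, plus strand: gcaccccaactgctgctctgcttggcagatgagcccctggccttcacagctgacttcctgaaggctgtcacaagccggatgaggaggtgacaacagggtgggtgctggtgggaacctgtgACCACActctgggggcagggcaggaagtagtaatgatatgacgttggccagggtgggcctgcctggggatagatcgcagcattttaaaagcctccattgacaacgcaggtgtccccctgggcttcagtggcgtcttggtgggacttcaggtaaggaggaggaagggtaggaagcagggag
In these promoters the first capital letter lay 89 bases before the start site in Klrb1c, 176 and 41 bases before it in Ncr1, 93 and 34 in Gzmb and 130 in Prf1. In the 3 promoters not printed, the distances were 129 bases in Klrk1, 83 in Nkg7 and 50 in Gzma.

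Among the transcription factors of NK and effector cells, 7 of 15 tested genes rose, against 19.6% of all tested genes, with a median log2 fold change of 0.61. When scaled to leukocyte transcripts, Eomes alone was called higher and 4 genes lower, against 3.64% and 68.4% of all genes. Eomes, a T-box factor needed for NK cell maturation, had 3.10, 0.638, 2.76 and 4.50 CPM in VC and 15.8, 8.72, 8.12 and 10.1 CPM in miR-21-KD tumours. These groups did not overlap, and its log2 fold change was 1.96 (SE 0.48, adjusted p = 0.0160, edgeR). Id2, an inhibitor of E proteins required by innate lymphocytes, rose from 110 ± 20.3 to 222 ± 37.3 CPM (SD, n = 4 each, log2 fold change 1.02, adjusted p = 0.00656). Runx3, the RUNX factor of cytotoxic lymphocytes, rose from 51.0 ± 6.87 to 78.0 ± 8.85 CPM (log2 fold change 0.61, adjusted p = 0.00906). Relative to leukocyte transcripts, Eomes remained higher (1.09, adjusted p = 0.00929), whereas Id2 and Runx3 had 0.09 and -0.31 and did not pass.

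Of the other receptors and adaptors of NK cells, 18 of 29 tested genes rose, against 19.6% of all tested genes, with a median log2 fold change of 1.16. Relative to leukocyte transcripts, 2 of them were called higher, Cd247 and, named after its values were seen, Cd226, against 3.64% of all genes. Cd247, the zeta chain through which NKp46 and the T cell receptor signal, rose from 4.93 ± 2.08 to 14.9 ± 4.28 CPM (SD, n = 4 each, log2 fold change 1.59, SE 0.33, adjusted p = 0.0102, edgeR). Klra7, an inhibitory receptor of the Ly49 family, rose from 0.333 ± 0.133 to 1.14 ± 0.218 CPM (log2 fold change 1.74, adjusted p = 0.00953). Fcgr3, an Fc receptor that macrophages also express, rose from 373 ± 80.4 to 670 ± 99.3 CPM (log2 fold change 0.85, adjusted p = 0.0105). In the leukocyte-relative fit Klra7 had 0.85 (adjusted p = 0.112) and Fcgr3 -0.069 (adjusted p = 0.826). Ly49 genes are close paralogs that vary between strains, which leaves the value of Klra7 uncertain. Klra8, a defining NK gene of C57BL/6 mice that BALB/c mice lack, had 0 counts in every VC tumour and 1 count in a single miR-21-KD tumour. Klrc1, named after its values were seen because it encodes NKG2A, the partner of CD94, had 1.25, 0.160, 0.630 and 2.04 CPM in VC and 5.98, 3.46, 1.54 and 1.096 CPM in miR-21-KD tumours. Those groups overlapped, and its log2 fold change of 1.55 (SE 0.72) did not pass (adjusted p = 0.113).

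Of 13 tested genes of other killing molecules, 4 rose, against 19.6% of all tested genes. The leukocyte-relative fit called 1 higher, Ccl5, and 2 lower, against 3.64% and 68.4% of all genes. Ccl5, a chemokine released by activated T and NK cells, rose from 19.3 ± 9.91 to 72.6 ± 22.1 CPM (SD, n = 4 each, log2 fold change 1.92, adjusted p = 0.00922, edgeR). Tnf rose from 4.71 ± 1.93 to 10.9 ± 2.001 CPM (log2 fold change 1.20, adjusted p = 0.0147). Fasl, the death ligand, rose from 1.72 ± 0.799 to 4.79 ± 1.47 CPM (log2 fold change 1.47, adjusted p = 0.0266), with adjusted p values of 0.0666, 0.0598 and 0.0690 without VC replicate 3, miR-21-KD replicate 1 and miR-21-KD replicate 4. Gzmc, Gzmd, Gzme, Gzmf and Gzmg, paralogs near Gzmb named after their values were seen, did not pass, with log2 fold changes from -1.11 to -0.19. Without VC replicate 3, those of Gzmd, Gzme, Gzmf and Gzmg turned to 0.69, 1.01, 0.26 and 0.88, also without passing. VC replicate 3 held the highest value of each, such as 50.4 CPM of Gzmg against 1.92 to 21.1 CPM in the other 7 tumours.

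Genes of granule processing, release and granzyme inhibition rose in 11 of 18 cases, against 19.6% of all tested genes, with a median log2 fold change of 0.53. Relative to leukocyte transcripts, 1 was called higher, Srgn (0.90, adjusted p = 0.0106), and 5 lower, against 3.64% and 68.4% of all genes. Ctsh had -0.11 and Serpinb9 -0.19 in that fit without passing. Srgn, the proteoglycan core that packs granzymes and is made by many leukocytes, rose from 665 ± 275 to 2311 ± 544 CPM (SD, n = 4 each, log2 fold change 1.80, adjusted p = 0.00680, edgeR). Ctsh, which encodes a cathepsin that can process progranzymes, rose from 287 ± 50.7 to 511 ± 96.1 CPM (log2 fold change 0.83, adjusted p = 0.0110). Serpinb9, the inhibitor of granzyme B, rose from 59.6 ± 7.91 to 99.4 ± 9.13 CPM (log2 fold change 0.74, adjusted p = 0.00585). The 1 gene of this list that fell was Ap3b1, a subunit of a lysosomal sorting adaptor, from 136 ± 6.64 to 109 ± 10.6 CPM (log2 fold change -0.31, adjusted p = 0.0260). Its adjusted p lay between 0.0519 and 0.0683 when VC replicate 1, 2 or 3 or miR-21-KD replicate 1, 3 or 4 was left out.

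**Figure D4:**
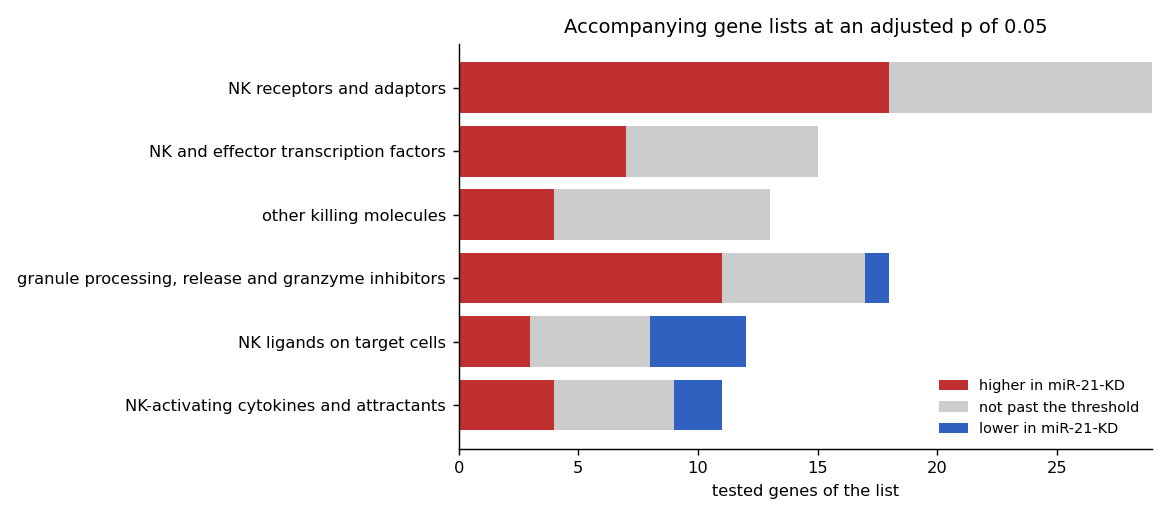
Number of tested genes (horizontal axis) of 6 gene lists around NK killing that were higher (red), lower (blue) or not past the threshold (grey) under miR-21 knockdown at an adjusted p of 0.05. Receptors and adaptors show 18 of 29 genes higher, and ligands on target cells are the list with most genes lower, 4 of 12.

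Ligands that NK receptors read on target cells moved in both directions, with 3 of 12 tested genes higher and 4 lower, where 19.6% of all tested genes were higher and 19.5% lower. In the leukocyte-relative fit 8 were called lower, against 68.4% of all genes. All 4 that fell encode ligands of NKG2D, the product of Klrk1. Raet1d had 24.3, 25.7, 28.5 and 19.1 CPM in VC and 2.43, 8.02, 4.95 and 3.601 CPM in miR-21-KD tumours. Raet1e had 34.2, 32.4, 35.3 and 20.5 CPM in VC and 2.91, 11.6, 8.36 and 4.38 CPM in miR-21-KD tumours. Neither gene overlapped between groups, and their log2 fold changes were -2.36 (SE 0.33, adjusted p = 0.00558, edgeR) and -2.17 (SE 0.40, adjusted p = 0.00761).

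Ulbp1 fell from 13.8 ± 3.92 to 7.44 ± 2.63 CPM (SD, n = 4 each, log2 fold change -0.89, adjusted p = 0.0428, edgeR). VC replicate 4 lay below miR-21-KD replicate 2, and adjusted p values of 0.0925 to 0.103 were found when VC replicate 1, 2 or 3 or miR-21-KD replicate 1, 3 or 4 was left out. H60b, the remaining gene that fell, named after its values were seen, went from 2.84 ± 0.637 to 1.77 ± 0.211 CPM (log2 fold change -0.68, adjusted p = 0.0483). Its adjusted p was 0.0571 with the replicate block, 0.0577 with DESeq2, 0.0587 with upper-quartile scaling, 0.0740 without a filter on low counts and 0.0714 to 0.131 when VC replicate 1, 2 or 3 or miR-21-KD replicate 1, 3 or 4 was left out. Raet1 genes are near-identical paralogs, so the split of reads among them is uncertain. Both Raet1 and H60 genes differ between mouse strains, which leaves their values uncertain in BALB/c tumours counted on a C57BL/6 reference. Carcinoma and epithelium markers, summed, ranged from 1295 to 2234 CPM in VC and from 1088 to 2021 CPM in miR-21-KD tumours. Of these 9 genes, 7 were called higher, Krt18 was called lower (log2 fold change -1.15, adjusted p = 0.0374, or 0.0501 without a filter on low counts and 0.0600 to 0.0941 without VC replicate 1, 2 or 3 or miR-21-KD replicate 3 or 4), and the median log2 fold change was 1.93. Their part in the fall of these ligands was not tested.

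**Figure D5:**
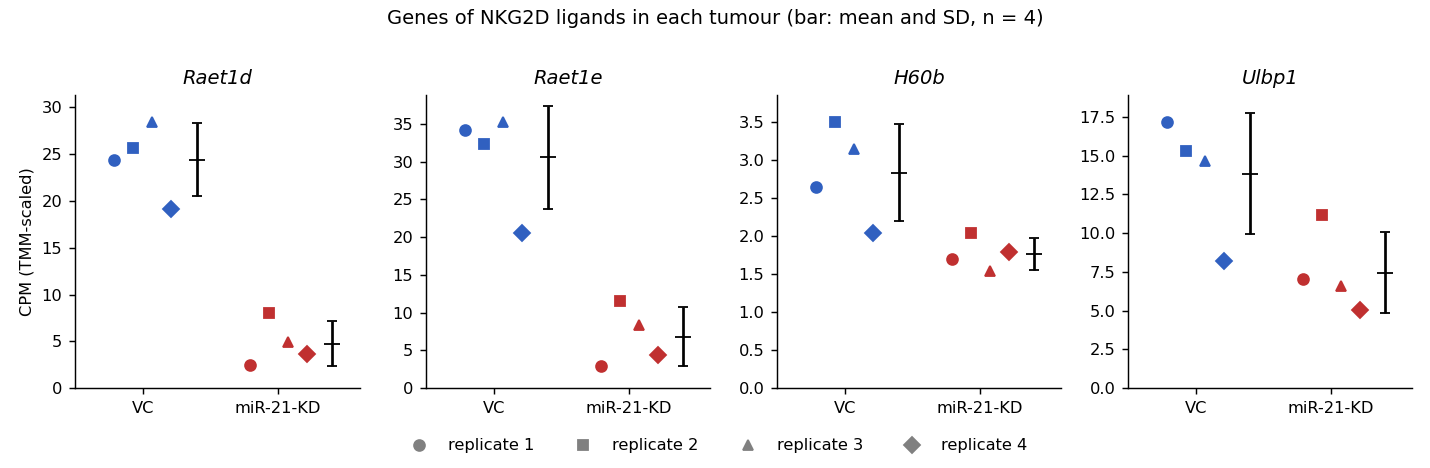
CPM (vertical axes, linear from 0) of 4 genes of NKG2D ligands in the VC (blue) and miR-21-KD (red) tumours, with replicate numbers as symbols and mean ± SD as bars. All miR-21-KD tumours lie below all VC tumours for Raet1d and Raet1e, while Ulbp1 overlaps between groups and H60b values of VC replicate 4 and miR-21-KD replicate 2 coincide at 2.04 CPM.

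The ligands that rose are read by other receptors. Fas, the receptor of the Fasl product, rose from 14.1 ± 3.45 to 28.6 ± 0.593 CPM (SD, n = 4 each, log2 fold change 1.02, adjusted p = 0.00632, edgeR). Clec2d, a ligand of NKR-P1 receptors, rose from 71.2 ± 15.6 to 127 ± 21.8 CPM (log2 fold change 0.84, adjusted p = 0.0103). Cd48, a leukocyte ligand of the receptor 2B4, rose from 25.7 ± 8.82 to 52.5 ± 14.0 CPM (log2 fold change 1.03, adjusted p = 0.0166, or 0.0516 without VC replicate 3).

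Of the cytokines and attractants that act on NK cells, 4 of 11 tested genes rose and 2 fell, against 19.6% and 19.5% of all. The leukocyte-relative fit called 1 higher, Ccl4, and 5 lower, against 3.64% and 68.4% of all genes. The chemokine genes Ccl4 and Ccl3 rose from 13.8 ± 6.57 to 39.0 ± 7.99 CPM (SD, n = 4 each, log2 fold change 1.497, adjusted p = 0.00998, edgeR) and from 17.3 ± 7.62 to 40.3 ± 9.66 CPM (1.22, adjusted p = 0.0194, or 0.0541 without VC replicate 3). Il15, on which NK cell survival depends, rose from 6.84 ± 1.70 to 11.05 ± 1.67 CPM (log2 fold change 0.69, adjusted p = 0.0356), with adjusted p values of 0.0533 to 0.0875 when VC replicate 1, 2 or 3 or miR-21-KD replicate 1, 3 or 4 was left out and 0.0501 without a filter on low counts. Cx3cl1, which attracts NK cells, fell from 53.1 ± 12.5 to 26.5 ± 2.89 CPM (log2 fold change -0.9995, adjusted p = 0.00739). Il18, an activator of NK cells, fell from 13.6 ± 3.06 to 7.37 ± 1.73 CPM (log2 fold change -0.88, adjusted p = 0.0183), with adjusted p values of 0.0508 and 0.0512 without VC replicate 3 and miR-21-KD replicate 4. Over all 6 lists, 47 of 98 tested genes rose and 7 fell, against 19.6% and 19.5% of all tested genes. Of the 98, 6 were called higher and 24 lower relative to leukocyte transcripts, against 3.64% and 68.4%. The counts that rose were 27, 21, 28 and 28 without VC replicate 2, VC replicate 3, miR-21-KD replicate 1 and miR-21-KD replicate 4, and 55 without VC replicate 4. Of all genes, 11.6%, 9.90%, 12.9%, 12.1% and 20.4% were called higher in these fits. The counts that fell were 3 to 4 without VC replicate 1, 2 or 3 or miR-21-KD replicate 3 or 4, where 10.2% to 16.6% of all genes were called lower.

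The mean profile of the tested members over the 8 tumours was set against the profile of each other gene. Likeness was the root-mean-square difference of log2 CPM after each gene's own mean was removed, over 12866 genes with a mean of at least 1 log2 CPM. The closest were Cd27, a costimulatory receptor of T and NK cells (0.117), Il2rb, the shared receptor chain for IL-2 and IL-15 (0.123), Lck, a T cell kinase (0.155), and Trac, the constant region of the T cell receptor alpha chain (0.158). F830016B08Rik, Sh2d2a, Agap2 and Cd96 followed at 0.174 to 0.176. Il2rb and Cd96 were the 2 of these 8 genes called higher with all tumours, where 19.6% of tested genes were. The block called 7, all but F830016B08Rik, against 23.0%, and 8 were called without VC replicate 4 against 20.4%. These genes were picked for likeness to the members' profile, so their calls are no independent support for a rise. Both Il2rb and Cd96 missed the threshold without VC replicate 3, miR-21-KD replicate 1 or miR-21-KD replicate 4, as did Il2rb without VC replicate 1 and Cd96 without VC replicate 2 (adjusted p from 0.0525 to 0.0730). The members themselves lay at 0.198 (Klrk1) to 0.563 (Gzmb) from their mean, with Klrd1 at 0.399 and Prf1 at 0.400. All of these profiles share the same 8 libraries, and Trac and Lck are expressed by T cells, whose Cd3e rose from 9.65 ± 4.73 to 27.9 ± 8.89 CPM (SD, n = 4 each, log2 fold change 1.53, adjusted p = 0.0166, edgeR, or 0.0525 without VC replicate 3). Cd4 rose by 1.56 on the log2 scale (adjusted p = 0.0128). Relative to leukocyte transcripts, where Klrd1 was called, 2 of the 14 T cell markers were called higher too, against 3.64% of all genes. They were Cd3e (0.69, adjusted p = 0.0397, edgeR) and Cd4 (0.66, adjusted p = 0.0312). Cd8a had 5.38, 1.28, 3.47 and 20.2 CPM in VC and 23.2, 19.0, 4.95 and 19.1 CPM in miR-21-KD tumours, and its log2 fold change of 1.13 (SE 0.77) passed only without VC replicate 4 (2.28, adjusted p = 0.0243, against 0.261 with all tumours). Which share of the granzyme, Nkg7, Klrk1 and Klrd1 transcripts came from CD8 T cells rather than NK cells cannot be told apart in whole tumours.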

How the data were processed

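Total RNA from 4 VC and 4 miR-21-KD tumours was sequenced, and the table deposited by the authors holds raw counts for each Entrez gene, not normalised, with 1 column per tumour. Submitters' processing notes name mm10, Subread, featureCounts, edgeR and limma. Their versions and the strand setting were not given in the sources used here. Groups and replicate numbers came from the sample labels. The members and gene lists were chosen with earlier results of these data known, and the lists are from general knowledge.

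Symbols from the GRCm38.p6 RefSeq annotation matched 25275 of 27179 identifiers, and 237 tested genes had none. Counts were tested in R 4.3.3 with the robust quasi-likelihood test of edgeR 4.0.16 after filterByExpr (minimum count 10, minimum total 15) and TMM scaling, which kept 14382 genes with 99.9% of counts. Benjamini-Hochberg adjustment covered all tested genes (threshold 0.05). "Called", "rose" and "fell" refer to that threshold, and standard errors derive from the fold change and F statistic. Log2 CPM used a prior count of 2, and exon lengths came from GENCODE vM21. For the leukocyte-relative fit, summed counts of 15 pan-leukocyte genes replaced library sizes. The test was tried on simulated counts with known changes. P-values measure the spread between these tumours, not between independently made lines.

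Replicate numbers run from 1 to 4 in both groups. After removal of group means, tumours of the same number correlated at 0.272, 0.421, 0.175 and 0.376. Other combinations ran from -0.393 to 0.393, a range that holds all but the second of these values. Their mean of -0.105 is no separate contrast, because removal of group means pushes it below 0 when same-number values are positive. The check therefore cannot establish a pairing, and the labels state none. The block is given only as an alternative. Values use no block, and blocked ones are given where they change the call of a named gene or move a count by over 1.5 times. Alternatives were DESeq2 1.42.0, limma-voom 3.58.1 with quality weights, 2 other scalings, 2 other filters, Ptprc as leukocyte reference, the block and each tumour left out. Named genes are the members, in each list the 3 called genes with the lowest adjusted p for either direction, Ptprc, Cd3e, Cd8a and Cd4, and the 8 closest profiles. Lists of cell type markers are given as sums, and the carcinoma and epithelium list also by its calls.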

Additional observations from a re-analysis of the deposited data

Results flagged for a closer look

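In 56 groups of 4 tumours (members and summed lists), 3 had a tumour set far apart from the others by Dixon's criterion, which chance meets in about 1 group of 20. The summed B cell markers of VC replicate 4 were 252.7 CPM, and the next VC tumour had 27.7 CPM. Its summed carcinoma and epithelium markers were 1295 CPM, and the next lowest VC tumour had 2073 CPM. The summed genes of granule processing, release and granzyme inhibition were lowest in miR-21-KD replicate 2, at 5163 CPM with the next at 6908 CPM. No member gene was flagged.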

How the results depend on the processing

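The number of members called higher, 3 with all tumours, was 5 with DESeq2 and 7 with limma-voom and quality weights, against 23.9% and 28.1% of all genes, and it ran from 1 to 8 when single tumours were left out, against 9.90% to 22.5%. Of the genes in the 6 lists around NK killing, 21 to 55 were then called higher and 3 to 8 lower, against 9.90% to 22.5% and 10.2% to 24.3% of all genes. Relative to leukocyte transcripts, members called higher numbered 3 with the replicate block and 1 to 3, with 0 to 2 called lower, when single tumours were left out. Of all genes, 5.51% were called higher with that block, and 2.40% to 5.34% higher and 57.1% to 73.4% lower with single tumours left out. In that scaling the signs of 3 members that did not pass turned. With Ptprc counts as reference, Ncr1 had -0.038 and Klrk1 -0.0045. With single tumours left out, Ncr1 ranged from -0.078 to 0.32, Klrk1 from -0.088 to 0.45 and Gzma from -0.052 to 0.62. Of the granzyme genes near Gzmb, none past the threshold, Gzme turned from -0.19 to 0.14 with limma-voom and to 0.43 with the replicate block. With single tumours left out, Gzme ranged from -0.54 to 1.01, Gzmd from -1.25 to 0.69, Gzmf from -1.91 to 0.26 and Gzmg from -1.69 to 0.88. The cause of these shifts was not tested. The block changed the calls of Nkg7, H60b, Tbx21 and, among the closest profiles, Cd27, Lck, Trac, Sh2d2a and Agap2 (adjusted p from 0.0524 to 0.0699 without it and from 0.0237 to 0.0474 with it), and those of Nkg7 and Ctsw relative to leukocyte transcripts. It changed no other call of a member or named gene. In the 6 lists it called 51 genes higher and 6 lower, against 47 and 7. Of all genes, it called 23.0% higher and 22.1% lower, against 19.6% and 19.5%. Depth limits Gzmk, with 2 to 9 counts in VC tumours.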
